A study of Mus musculus with 12 samples.

Results

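The translation initiation and elongation factors are 55 genes read by 120 of the 41174 probes of an Agilent mouse expression array. They are the non-control probes whose gene name in the scanner files begins with Eif1 to Eif6, Eef1 or Eef2, without the Argonaute genes once named Eif2c. The rule reads gene names and no signal. RNA was measured in 12 single cells, the 2 blastomeres of each of 6 embryos that were split at the 2-cell stage. All embryos came from naturally mated CF-1 mice, an outbred stock, and were flushed from the oviduct at about 36 h post coitus, with no treatment and no genetic change in any group. The cells were squeezed out through a slit in the zona pellucida, and poly(A) RNA was amplified before labelling. The embryos were split in 2 experiments of 6 cells each. The first comprised the embryos named D, I and L, the second those named D, G and H, and a letter used in both names different embryos. Cells are numbered 1 and 2 within a pair, with no meaning given for the numbers. Both cells of a pair are twins of 1 embryo, and 2 cells are the only replicates an embryo can have.

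Initiation begins when eIF1, eIF1A, eIF3 and a ternary complex of eIF2, GTP and the initiator tRNA load onto the small ribosomal subunit. eIF4E binds the mRNA cap, eIF4G bridges it to the ribosome through eIF3, and the helicase eIF4A opens the leader. After the start codon is found, eIF5 triggers GTP hydrolysis by eIF2, eIF2B recharges eIF2, and eIF5B joins the large subunit. eEF1A then brings aminoacyl tRNAs to the elongating ribosome, the eEF1B subunits recharge eEF1A, and eEF2 moves the ribosome along. In the mouse, the main wave of embryonic genome activation falls in the 2-cell stage. Eif1a is a classic transcript of that wave, and the embryo at this stage also carries mRNAs stored by the oocyte.

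Of the 120 factor probes, 88 were tested, for 51 genes. A probe was tested when it was well above background on at least 6 of the 12 arrays. The tested probes included 53 that were well above background on all 12 arrays, for 40 genes. Eif2a, Eif2ak2, Eif2b3 and the Y-linked Eif2s3y had no tested probe. Eif2s3y was well above background on 1 array of each experiment. A gene is represented below by its tested probe with the highest mean, and levels are log2 of the signal divided by the array's 75th percentile. Signals under 0.0574 of that percentile were raised to it, so the lowest level printed, -4.12, is a floor. Each array has a lowest signal that passed background, and the floor is the highest of these, set by cell 1 of pair D of experiment 1. On other arrays a probe can therefore be well above background and still lie at the floor. A level tells how bright 1 probe was, and levels of different probes are not compared.

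The arrays of the 2 experiments stood apart. The signal of experiment 1 lies in Cy5 of a 2-channel scan and that of experiment 2 in Cy3, on other slides, so experiment, dye, scan and slide cannot be told apart. The share of all probes well above background ran from 21.9 to 41.5% on the arrays of experiment 1 and from 30.9 to 78.7% on those of experiment 2. For the factor probes it ran from 50 to 68.3% and from 65 to 92.5%. All but at most 2 of 18 oocyte and 2-cell transcripts were detected in each cell, with a summed signal of 54.1 to 98.7 in experiment 1 and 66.7 to 95.4 in experiment 2. Markers of other cells differed. Those of oviduct epithelium, of which Muc1 was never above background, summed to 8.22 to 59.8 in experiment 1, with 8 or 9 of 10 detected, and to 0.154 to 1.60 in experiment 2, with 3 to 8 detected. Stromal and smooth muscle markers summed to 4.33 to 41.6 against 0.0889 to 0.617, and macrophage and leukocyte markers to 4.31 to 225.9 against 0.0190 to 0.561. The part of these signals in the factor differences between experiments was not tested. Cumulus and granulosa markers summed to 0.511 to 1.63 against 1.03 to 3.70.

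The promoters of 8 factor genes are printed here because probes of these genes carried the differences described below, in the ternary complex group and in eIF3. The sequences are from RefSeq on GRCm38.p6, from 80 bases before the annotated transcription start to 20 from it on, written 5′ to 3′ along the gene. Capitals mark a GC box (CCGCCC) or an ETS core (CCGGAAG) read on either strand.
Eif1, chr11:100319869-100319968, plus strand: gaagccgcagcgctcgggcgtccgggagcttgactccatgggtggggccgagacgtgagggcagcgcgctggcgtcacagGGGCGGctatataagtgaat
Eif2s1, chr12:78861992-78862091, plus strand: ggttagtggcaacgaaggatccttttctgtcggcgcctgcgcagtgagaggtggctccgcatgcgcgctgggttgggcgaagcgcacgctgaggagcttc
Eif2s2, chr2:154892887-154892986, minus strand: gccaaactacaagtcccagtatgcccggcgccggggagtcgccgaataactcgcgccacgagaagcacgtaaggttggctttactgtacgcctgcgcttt
Eif2s3x, chrX:94212632-94212731, minus strand: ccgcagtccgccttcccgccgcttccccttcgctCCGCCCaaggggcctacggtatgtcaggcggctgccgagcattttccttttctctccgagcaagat
Eif5b, chr1:37997930-37998029, plus strand: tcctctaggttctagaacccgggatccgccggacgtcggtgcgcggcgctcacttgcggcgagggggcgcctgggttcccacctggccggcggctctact
Eif3b, chr5:140419225-140419324, plus strand: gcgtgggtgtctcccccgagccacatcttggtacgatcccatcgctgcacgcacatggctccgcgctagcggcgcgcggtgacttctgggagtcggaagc
Eif3j1, chr2:122028500-122028599, plus strand: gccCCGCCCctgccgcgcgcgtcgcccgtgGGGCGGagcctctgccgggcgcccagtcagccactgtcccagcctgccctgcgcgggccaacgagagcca
Eif3l, chr15:79075143-79075242, plus strand: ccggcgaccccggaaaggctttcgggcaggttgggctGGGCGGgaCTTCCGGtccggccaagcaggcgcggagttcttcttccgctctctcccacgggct

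Promoter windows were found for 44 of the 55 genes, and the motif shares below use the whole 300 bases of each window. A GC box stood in the window of 32 of the 44 genes (72.7%), beside 71.5% of 3815 named genes with a probe above background in every cell and 38.2% of all 27025 genes. An ETS core stood in 15 (34.1%), beside 22.9 and 9.93%. The E-box CACGTG stood in 11 (25%), beside 12.1 and 8.09%. The YY1 motif AAGATGGC stood in 6 (13.6%), beside 6.40 and 3.19%. The other motifs searched were the palindromic NRF1 motif (2.27%, beside 2.65 and 1.07%), CCAAT (36.4%, beside 44.1 and 41.1%) and TATAAA (11.4%, beside 8.89 and 15.7%). All were read on both strands, and no motif contains another. Among the promoters printed above, 3 of the 5 genes of the ternary complex group and 1 of the 3 eIF3 genes hold neither marked motif in the printed stretch. Matches describe letters only.

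Between the experiments, 10 of the 88 factor probes passed, for 9 genes: 7 probes were higher in experiment 2 and 3 were lower. That is 11.4% of the factor probes, where 8.1% of all 16694 tested probes passed (3.95% higher and 4.15% lower), so the share of factor probes lay near that of the array. A probe passed at an adjusted p under 0.05 in limma, a linear model with moderated spread, with embryo as a random block. With 1 probe per gene, 6 of 51 factor genes passed, 3 in each direction, beside 9.17% of the 12844 named genes. Among probes measured in every cell, 10 of 53 factor probes passed (18.9%, beside 16.0% of all 5858). Experiment 2 lay above experiment 1 without overlap for 6 of the 53 (beside 7.58%) and below it for 3 (beside 7.44%). The median difference over the 51 genes was -0.05, and over all tested probes it was 0.19. The balance of directions depends on the scaling: of all probes that passed, 48.8% were higher in experiment 2, against 12.7% with the percentile over all probes, 12.6% after normexp background correction, 35.2% with a lower floor and 25.5% with a floor for each array. The median of all tested probes was then 0.00, -0.76, 0.09 and -0.11. Of the factor probes, 1 higher and 0 lower passed under 3 of these settings, and 0 passed after normexp. The balance stayed near the main one under quantile normalization (53.4% higher) and on the deposited values (52.3%). There 10 factor probes were higher and 4 lower, and 4 higher and 0 lower. No factor probe named as passing changed sign under any setting. With twins averaged first, which leaves 3 embryos an experiment, 8 factor probes passed (beside 4.93% of all probes). Of the 10 calls, that fit ended those of both Eif2s3x probes (adjusted p = 0.101 and 0.0883), Eif3j1 (0.0878), Eef1g (0.0577) and Eif5b (0.0571). Normexp also shrank the differences of the dim probes, from 1.67 to 0.58 for Eif1, from 1.86 to 0.99 and from 1.58 to 0.58 for Eif2s3x, from 1.65 to 0.80 for Eif5b and from 1.12 to 0.55 for Eif2s1. Slide as the random block ended the calls of Eif2s1 (0.0519), one probe of Eif2s3x (0.0598), Eif3j1 (0.0514), Eif3l (0.0598) and Eif4ebp1 (0.0636).

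In the start site and ternary complex group, probes of Eif1, Eif2s1, Eif2s2, Eif2s3x and Eif5b rose, 6 of the 7 factor probes that passed as higher in experiment 2. Of all tested probes, 3.95% passed as higher. With 1 probe per gene, 2 of the 9 tested genes of the group passed, beside 4.22% of named genes higher. Eif2s2 encodes the beta subunit of eIF2. On its probe A_52_P107354 the cells of experiment 1 ran from -1.26 through a median of -0.92 to -0.52, and those of experiment 2 from 0.41 through 0.86 to 1.02. The groups did not overlap, and the difference was 1.68 (SE 0.21, n = 6 cells a group, 3.21-fold, adjusted p = 0.000833 in limma). The call held with each cell left out in turn, at an adjusted p of 0.000551 to 0.00425. The other tested probe of Eif2s2, A_51_P470724, is the brighter one and did not pass. Its cells ran from 0.96 through 1.57 to 2.20 in experiment 1 and from 0.82 through 1.38 to 2.10 in experiment 2 (difference -0.06, SE 0.28, adjusted p = 0.932). The probes of this gene therefore disagree, and the probes' own sequences were not used here.

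Eif2s3x, the X-linked gene of the gamma subunit of eIF2, which binds GTP and the initiator tRNA, gave the same split between probes. On A_51_P305532 the cells ran from -4.12 through -3.20 to -2.47 in experiment 1 and from -2.20 through -1.26 to -0.60 in experiment 2. On A_52_P314042 they ran from -4.12 through -3.72 to -3.11 and from -3.03 through -2.10 to -1.19. Neither probe overlapped between experiments, and both cells of pair I lay at the floor on both. Both probes were well above background on all 12 arrays, so these signals had been measured and were then raised to the floor. The differences were 1.86 (SE 0.42, 3.62-fold, adjusted p = 0.0180) and 1.58 (SE 0.35, adjusted p = 0.0156), and both calls held with each cell left out, though not with twins averaged first. The brightest probe, A_51_P256154, overlapped between experiments (0.45, SE 0.52, adjusted p = 0.662).

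Eif1 encodes the factor that guards start codon recognition. Its probe A_52_P74044 rose by 1.67 (SE 0.36, 3.19-fold, adjusted p = 0.0151), from cells at -4.12 through -3.95 to -2.90 to cells at -2.82 through -1.96 to -1.48, with 3 cells of experiment 1 at the floor. The groups did not overlap, and the call held with each cell left out. The brighter probe of Eif1, A_51_P283837, varied little: it ran from 3.86 to 4.27 in experiment 1 and from 4.17 to 4.59 in experiment 2 (0.35, SE 0.13, adjusted p = 0.158).

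For Eif2s1 and Eif5b the representative probe itself rose. Eif2s1 encodes eIF2 alpha, the subunit that the stress kinases phosphorylate. It ran from -2.99 through -2.09 to -1.71 in experiment 1 and from -1.46 through -1.08 to -0.82 in experiment 2, without overlap (1.12, SE 0.30, 2.17-fold, adjusted p = 0.0426). The call was lost without any 1 of 8 cells: both of pairs I and L of experiment 1, both of pair G, and cell 1 of pairs D and H of experiment 2 (adjusted p of 0.0205 to 0.125 over all 12). Eif5b, the subunit joining GTPase, ran from -4.12 through -3.10 to -2.29 and from -2.33 through -1.55 to -0.98 (1.65, SE 0.40, 3.13-fold, adjusted p = 0.0265). Its groups met at 1 cell each, and the call was lost without cell 1 of pair D or of pair L in experiment 1 or either cell of pair G (0.00978 to 0.0664). Their dimmer probes had the same sign and did not pass (0.60 for the other probe of Eif2s1, and 0.88 and 0.57 for those of Eif5b).

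**Figure D1:**
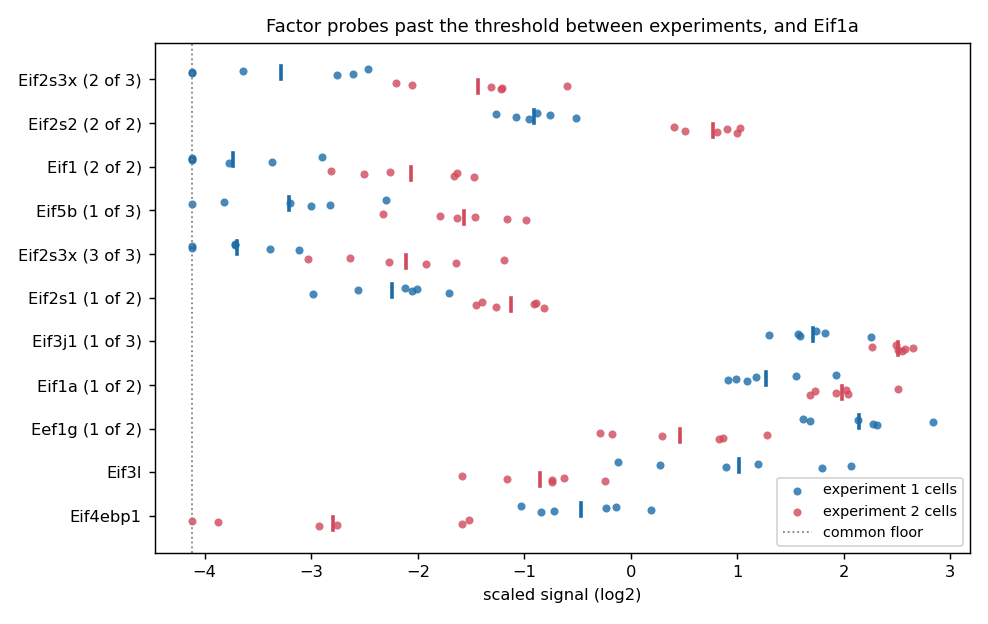
Log2 scaled signal (x axis) of the 10 factor probes that passed between experiments, and of the representative probe of Eif1a, in each of the 12 cells; bars mark the mean of 6 cells, and the numbers in brackets rank a probe among the gene's tested probes by brightness. For Eif2s2, Eif2s3x and Eif1 the probes that passed are not the brightest probe, and several cells of experiment 1 lie at the floor of -4.12.

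On its representative probe Eif1a, the genome activation transcript that encodes eIF1A, was well above background in every cell. That probe kept the gene name of the scanner files. On it the twins of experiment 1 read 1.09 and 0.91 (embryo D), 0.99 and 1.17 (embryo I), and 1.55 and 1.92 (embryo L). The twins of experiment 2 read 1.68 and 2.03 (embryo D), 1.93 and 1.72 (embryo G), and 2.02 and 2.50 (embryo H). The cells of experiment 2 were higher than 5 of the 6 cells of experiment 1, and cell 2 of pair L lay within their range. The difference of 0.71 (SE 0.23, 1.64-fold) did not pass (adjusted p = 0.0881 in limma). It passed under quantile normalization (0.88, adjusted p = 0.0245), with array weights (0.92, 0.00784) and without cell 2 of pair L (0.81, 0.0443). Those were 1 of 12 fits without a cell and 2 of 13 other settings. In the rest it did not pass, and its adjusted p in limma reached 0.192 and 0.775. A second probe of Eif1a differed by 0.17 (SE 0.49). Between embryos, Eif1a gave an adjusted p of 0.168, with pair L 1.67-fold above pair D in experiment 1 and pair H 1.35-fold above pair G in experiment 2. Eif1ax, the X-linked gene of the same factor, ran from 0.29 to 0.96 and from 0.65 to 1.70 (0.36, SE 0.23, adjusted p = 0.453). On the representative probes, the pairs with the highest mean were the same for both genes, L in experiment 1 and H in experiment 2. The second probe of Eif1a was also highest in pair L, but in experiment 2 it was lowest in pair H (-3.90) and highest in pair G (-2.44).

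Of the rest of this group, Eif1b (-0.05, SE 0.38) and the representative probe of Eif5 (0.05, SE 0.43), the GTPase activator of eIF2, had differences smaller than their standard errors. A dimmer probe of Eif5 differed by 1.33 (SE 0.40, adjusted p = 0.067). In all, 7 of the 9 tested genes of the group were higher in experiment 2 by estimate, 2 passed, and the median difference was 0.36. Over all named genes 8082 of 12844 were higher by estimate, and 6 of the 9 lay above the median of all tested probes, 0.19. The number that was higher ranged from 6 to 9 under the other scalings.

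The enzymes that recharge or restrain eIF2 gave no call. None of 4 eIF2B genes and 3 eIF2 kinase genes passed in limma, with 1 of each at an unadjusted p under 0.05. Eif2b2 was lower in experiment 2 by 1.00 (SE 0.35, adjusted p = 0.121), and Eif2b4, which encodes the delta subunit, was 0.67 higher (SE 0.35). Eif2b1, of the alpha subunit, differed by -0.30 (SE 0.49). Eif2b5, of the catalytic epsilon subunit, was at the floor in all 6 cells of experiment 1 and in 3 cells of experiment 2 (0.50, SE 0.28). Among the kinases, Eif2ak4, which senses uncharged tRNA, was higher by 1.23 (SE 0.51, adjusted p = 0.198). Eif2ak3, the kinase of the endoplasmic reticulum, was at the floor in every cell of experiment 1, and Eif2ak1, the haem-regulated kinase, differed by -0.45 (SE 0.53).

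Within eIF3, the scaffold on the small subunit, 12 genes were tested, 1 rose and 1 fell between experiments. Eif3j1, a loosely bound subunit, was higher in experiment 2 by 0.79 (SE 0.19, 1.73-fold, adjusted p = 0.0241). Its cells ran from 1.30 through 1.66 to 2.26 in experiment 1 and from 2.26 through 2.53 to 2.65 in experiment 2, so the groups touched without overlapping. The call was lost without cell 1 of pair L of experiment 1 (adjusted p = 0.0677) or cell 2 of pair G (0.0590). The other probes of Eif3j1 differed by 0.68 and 0.27 and did not pass. Eif3l was lower in experiment 2 by 1.87 (SE 0.50, 3.64-fold, adjusted p = 0.0424), from cells at -0.13 through 1.05 to 2.07 to cells at -1.58 through -0.74 to -0.24, without overlap. Its call was lost without any 1 of 8 cells (adjusted p of 0.0251 to 0.147 over all 12): both of pair D and cell 1 of pairs I and L in experiment 1, cell 1 of pair D, both of pair G and cell 2 of pair H in experiment 2. Eif3d, a subunit that can itself bind a cap, was lower by 1.5 (SE 0.48) without passing (adjusted p = 0.0869). In all, 8 of the 12 genes were lower by estimate and the median difference was -0.24, with 3 above the median of all tested probes. The number lower ranged from 6 to 11 under the other scalings. Besides Eif3l and Eif3d, Eif3g (-0.57, SE 0.49), Eif3h (-0.57, SE 0.22), Eif3e (-0.42, SE 0.36), Eif3i (-0.31, SE 0.40), Eif3c (-0.17, SE 0.39) and Eif3b (-0.11, SE 0.40) were lower by estimate, and Eif3a (0.86, SE 0.43), Eif3k (0.39, SE 0.30) and Eif3f (0.19, SE 0.37) were higher.

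None of the 9 cap binding and helicase genes passed between experiments, and none reached an unadjusted p under 0.05 in limma. Among those measured in every cell, Eif4a1, the main eIF4A helicase gene, ran from 1.58 to 2.70 in experiment 1 and from 1.57 to 2.35 in experiment 2 (-0.16, SE 0.22). Eif4b, its cofactor, ran from 1.90 to 2.54 and from 1.77 to 2.69 (-0.14, SE 0.25). The cap binding gene Eif4e ran from 0.62 to 1.71 and from -0.03 to 1.61 (-0.14, SE 0.34). Its other probe differed by 0.50 (SE 0.26), the opposite sign. The estimates for Eif4e2 (0.46, SE 0.75), Eif4e3 (0.68, SE 0.53), Eif4a2 (0.04, SE 0.65), Eif4g1 (0.37, SE 0.41), Eif4g2 (0.83, SE 0.52) and Eif4g3 (-0.68, SE 0.49) all lay within 2 standard errors of 0.

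Among the 4 repressors of eIF4E, Eif4ebp1 fell. Its protein competes with eIF4G for eIF4E until mTOR phosphorylates it. The probe ran from -1.03 through -0.48 to 0.19 in experiment 1 and from -4.12 through -2.84 to -1.52 in experiment 2, without overlap (-2.33, SE 0.64, 5.04-fold, adjusted p = 0.0467). Twins of experiment 2 differed widely, with readings of -1.58 and -3.88 for embryo G and of -4.12 and -1.52 for embryo H. The call was lost without any 1 of 9 cells, which are all 6 of experiment 1, both of pair D and cell 2 of pair G in experiment 2 (adjusted p of 0.0112 to 0.164 over all 12). Eif4ebp3 had 2 probes with differences of -0.99 (SE 0.52) and -1.05 (SE 0.62), neither past the threshold. Eif4ebp2 (0.12, SE 0.61) was at the floor in 6 of the 12 cells. Eif4enif1, the shuttling partner of eIF4E that takes part in storing mRNA in oocytes, was higher by 0.85 (SE 0.25, adjusted p = 0.0636).

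Of the 8 elongation genes, Eef1g fell. It encodes the gamma subunit of the exchange factor eEF1B. Its cells ran from 1.62 through 2.20 to 2.84 in experiment 1 and from -0.29 through 0.56 to 1.28 in experiment 2, without overlap (-1.68, SE 0.37, 3.20-fold, adjusted p = 0.0158). The call was lost without cell 1 of pair L of experiment 1 (adjusted p = 0.0588). Its second probe was at the floor in all 6 cells of experiment 2. Eef1d, the delta subunit (-1.16, SE 0.35, adjusted p = 0.0657), and Eef1a1, which encodes eEF1A (-0.79, SE 0.23, adjusted p = 0.0612), were lower without passing, and Eef1b2 differed by 0.07 (SE 0.31). The representative probe of Eef2, the translocase, was near the floor (-0.58, SE 0.37), and its other probes had the opposite sign (0.26 and 0.57). Eef2k, the kinase that restrains eEF2, differed by -0.43 (SE 0.57). Eef1a2 and Eef1e1 were at the floor in 5 of 6 cells of experiment 1. Eif5a, which carries hypusine and helps ribosomes past difficult peptide bonds, was lower by 1.11 (SE 0.37, adjusted p = 0.0961), and Eif5a2 by 0.52 (SE 0.21).

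**Figure D2:**
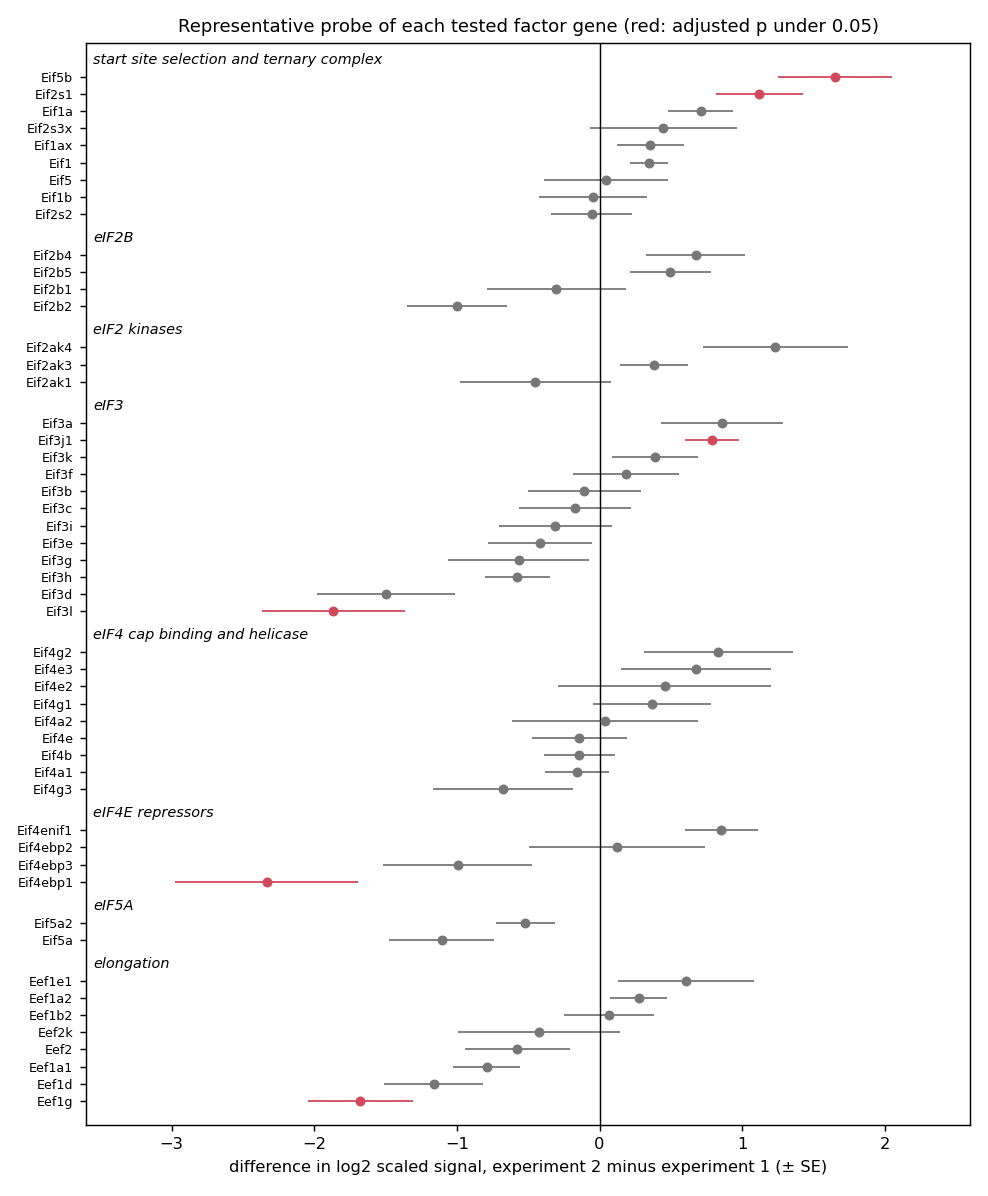
Difference in log2 scaled signal between experiments (x axis, experiment 2 minus experiment 1, with its standard error; 6 cells in each) for the representative probe of 51 factor genes, grouped by role. Eif5b, Eif2s1 and Eif3j1 passed above 0, and Eef1g, Eif3l and Eif4ebp1 passed below it.

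Between embryos of the same experiment, 1 of the 88 factor probes passed, beside 1.4% of all tested probes. This was Eif3b, a core subunit of eIF3. The twins of experiment 1 read 3.14 and 2.81 (embryo D), 2.31 and 2.21 (embryo I), and 1.41 and 1.10 (embryo L). Those of experiment 2 read 2.30 and 2.53 (embryo D), 2.56 and 2.30 (embryo G), and 1.11 and 1.54 (embryo H). Twins lay close together, the pairs of experiment 1 did not overlap, and pair H lay below the other pairs of experiment 2. Pair D was 3.29-fold above pair L, and pair G 2.16-fold above pair H (adjusted p = 0.0456 in the moderated F test of limma over the 4 embryo contrasts, n = 2 cells an embryo). The call was lost in each experiment alone (adjusted p = 0.219 and 0.0786), within the slides that held 2 embryos (0.145), with cell number as a block (0.0856), with the percentile over all probes (0.320), a lower floor (0.141), a floor per array (0.0697), the deposited values (0.138) or probes on all 12 arrays (0.0847), and without any 1 of 8 cells, both of pairs D and I of experiment 1 and of pairs D and H of experiment 2 (0.0188 to 0.121 over all 12). A dimmer probe of Eif3b was at the floor in 8 of the 12 cells and did not pass.

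At an unadjusted p under 0.05, 30 factor probes (34.1%) differed between embryos, beside 29.8% of all tested probes. The lowest pairs, L and H, were the same in several other eIF3 subunits, while the order of the other pairs varied. Eif3c read 2.95 and 3.02, 2.62 and 2.29, and 1.90 and 1.02 in embryos D, I and L of experiment 1, and 1.78 and 2.48, 2.67 and 2.6, and 1.81 and 1.42 in embryos D, G and H of experiment 2 (adjusted p = 0.0979). Its next probe, A_51_P272005, was also lowest in pairs L and H (adjusted p = 0.0805). Eif3g, which binds the mRNA, read 1.12 and 0.82, 1.79 and 0.29, and 0.02 and -0.97 in experiment 1, and 0.30 and 0.39, 0.04 and 0.49, and -0.83 and -0.73 in experiment 2 (adjusted p = 0.151). Eif3f and Eif3l were lowest in the same pairs, by 2.05-fold and 1.76-fold from the highest pair in experiment 1 and 1.38-fold and 1.53-fold in experiment 2.

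In all, pair L was the lowest embryo of experiment 1 for 6 of the 10 eIF3 subunits measured in every cell, beside 30.4% of all probes measured so. Pair H was the lowest of experiment 2 for 7 of 10, beside 45.6%, and both held for 5 of 10, beside 17.4%. The pairs were read from Eif3b, itself among the 10, so each count includes the gene that named the pairs. These counts are small and carry no test. Marker sums of pair L also stood apart in experiment 1. Macrophage and leukocyte markers summed to 225.9 and 29.2 in its cells and to 4.31 to 20.7 in the others, oviduct epithelium markers to 8.22 and 8.85 against 16.5 to 59.8, and stromal markers to 6.54 and 4.33 against 12.4 to 41.6. In experiment 2, granulosa markers summed to 1.03 and 1.22 in pair H against 2.30 to 3.70. Their part in the embryo differences was not tested. With the 75th percentile taken over all probes, pair H was the lowest for 0 of 10, while pair L was for 8 of 10. The shares of all probes under that scaling were not taken, so these counts cannot be set against the array. Other subunits ran otherwise: Eif3d was lowest in pair D of experiment 1 and in pair G of experiment 2, and Eif3h varied by 1.15-fold among the pairs of experiment 1.

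**Figure D3:**
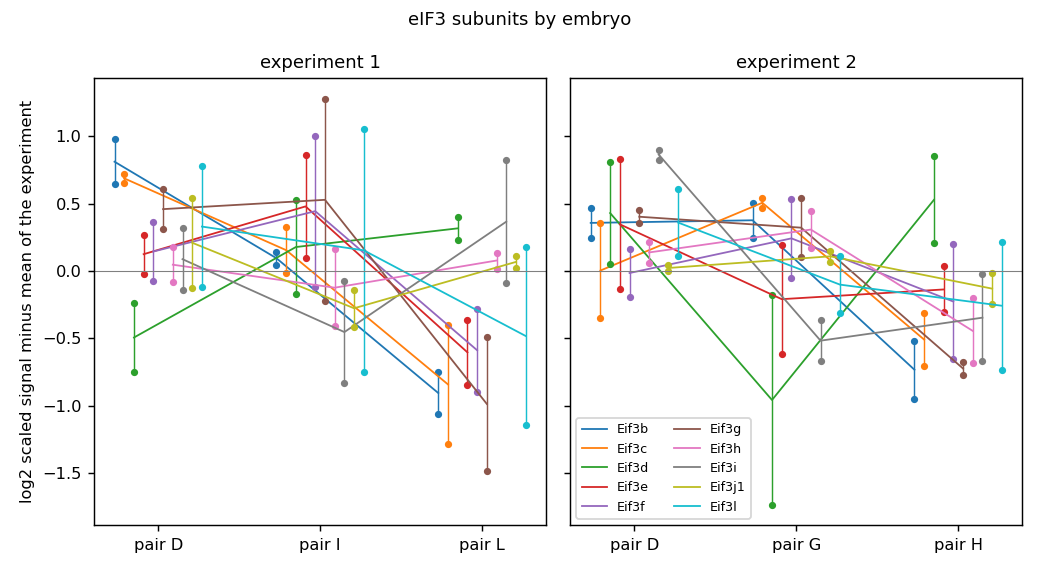
Log2 scaled signal of 10 eIF3 subunits measured in every cell, less the mean of the experiment (y axis), by embryo (x axis); points are the 2 cells of an embryo and coloured lines join the means of the embryos. Eif3b, Eif3c and Eif3g are lowest in pair L and in pair H, and Eif3d is not.

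Pairs L and H were also both the lowest for 12 of all 53 factor probes measured in every cell (22.6%, beside 17.4%), 6 of them outside eIF3: the representative probes of Eef1b2, Eef1d, Eef1g, Eif1, Eif2b2 and Eif2b4. Their highest and lowest pairs lay 1.21-fold to 2.11-fold apart. Other factors had other pairs apart. On its representative probe, Eif4e in pair L exceeded pair D by 1.86-fold, and in experiment 2 pair D exceeded pair G by 2.40-fold (adjusted p = 0.0825). The other probe of Eif4e was also highest in pair L, but in experiment 2 it was highest in pair H, 1.55-fold above pair G. Eif4g2, a relative of eIF4G that lacks the eIF4E binding site, was brighter in pair L, by 3.90-fold over pair D (adjusted p = 0.132), as was Eef2k, by 3.52-fold (adjusted p = 0.142). None of these passed.

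The study asked how alike the cells of 1 embryo are. Over the 53 factor probes measured in every cell, the mean absolute twin difference had a median of 0.57, beside 0.57 for all 5858 such probes. By embryo the median absolute difference of the factor probes ran from 0.36 in pair D of experiment 2 to 0.57 in pair I of experiment 1, against 0.38 to 0.56 for all probes. Cell 2 was the higher one for 21 to 28 of the 53 probes in each pair.

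Ranked by the representative probe of each gene, Eif1 was among the most evenly shared. On this probe its twins differed by 0.04 to 0.18 in the 6 pairs, a mean of 0.12 (SD 0.05, n = 6 pairs), a lower mean than in all but 0.307% of the probes measured in every cell. Eif4a1 (mean 0.21), Eif3j1 (0.23), Eif3b (0.28) and Eif1ax (0.28) followed. Eif1a differed by a mean of 0.29 (SD 0.13), with cell 2 higher in 4 pairs. Dimmer probes of Eif1, Eif3j1 and Eif1a were less even: the mean was 0.54 on A_52_P74044 of Eif1, 0.75 on A_51_P211341 of Eif3j1 and 0.79 on A_51_P277884 of Eif1a, so the ranking holds for the brightest probe. Dimmer probes of Eif3b (0.20) and Eif4a1 (0.23 and 0.22) were not less even or nearly as even, with many values at the floor. Eif5a2 had the smallest mean, 0.06, but 6 of its 12 values lie at the floor.

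Among representative probes, Eif4a2, the second eIF4A gene, had the largest mean, 1.14 (SD 0.67, n = 6 pairs). This probe was dim, with mean levels of -2.77 and -2.73 in experiments 1 and 2 and 1 cell at the floor. The other probe of Eif4a2 was not tested and lay at the floor in every cell. Of all tested factor probes, a dimmer one of Eif3c, A_52_P18807, had the largest mean, 1.60. It was well above background on 10 arrays, with 3 cells of experiment 1 at the floor. A dimmer probe of Eif4g3, A_51_P438363, had 1.20, and dimmer probes of Eif4ebp3 and Eif4b had 1.12 and 1.01. For Eif4a2, cell 2 was lower in every pair, by 0.32, 1.31 and 1.75 in pairs D, I and L of experiment 1 and by 0.85, 0.59 and 2.04 in pairs D, G and H of experiment 2. Of all probes measured in every cell, 0.922% were lower in cell 2 of every pair. The cell difference of Eif4a2 did not pass (-1.14, SE 0.25, unadjusted p = 0.00339, adjusted p = 0.674 in limma). Eif4ebp1 (mean 1.08), Eif2ak1 (0.99), Eif3l (0.98), Eif4ebp3 (0.96) and Eif4e3 (0.95) came next among representative probes. In experiment 2, Eif4ebp1 and Eif2ak1 each had 1 cell at the floor and Eif4ebp3 had 3, while Eif3l and Eif4e3 had none. The part of low signal in these twin differences was not tested. Eif3l was lower in cell 2 of 5 pairs, while cell 2 of Eif4ebp1 was higher in 3 pairs and lower in 3.

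No factor probe passed between cell numbers in limma, beside 0% of all tested probes, and 7 reached an unadjusted p under 0.05 (7.95%, beside 4.41%). For the interaction of cell number and experiment 0 passed as well, beside 0%, with 5 at an unadjusted p under 0.05 (5.68%, beside 5.27%). No factor probe was over 1.5-fold apart in all 6 pairs, beside 1.13% of all probes measured in every cell.

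**Figure D4:**
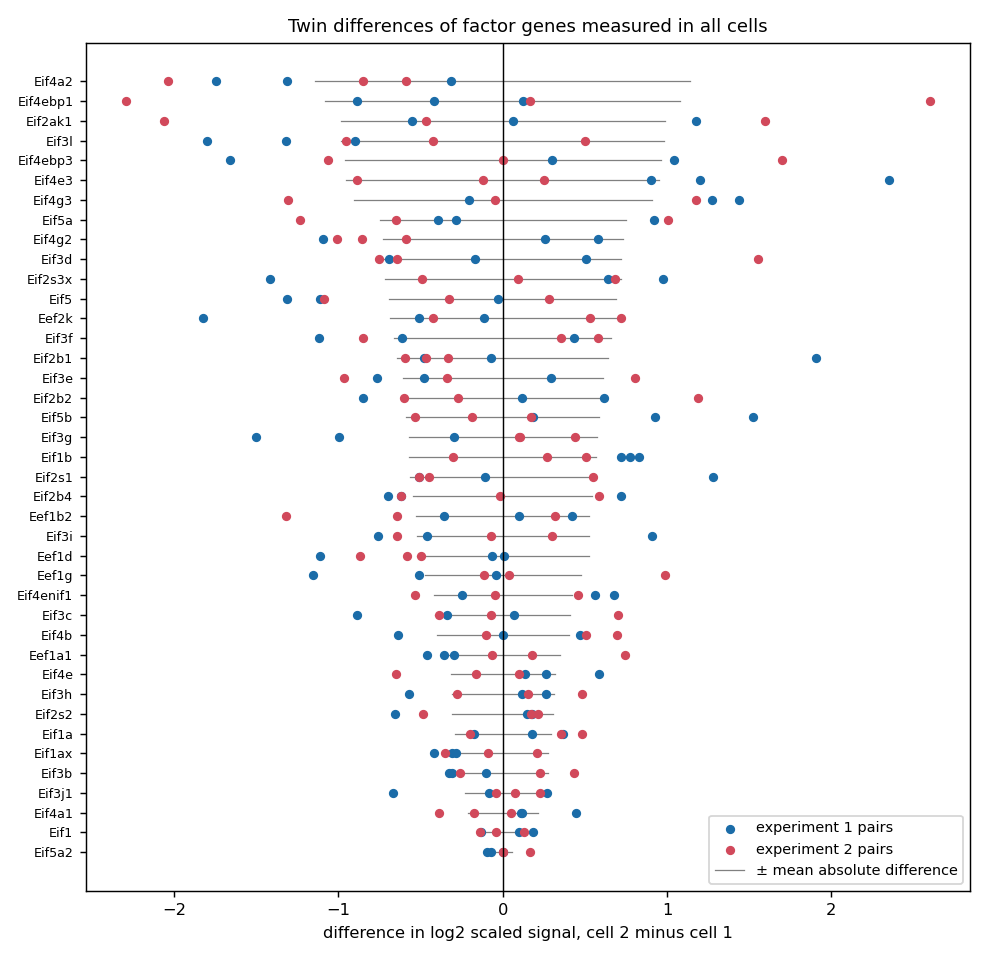
Difference in log2 scaled signal between the twins of each of 6 pairs (x axis, cell 2 minus cell 1) for the representative probes of 40 factor genes measured in every cell, ordered by the mean absolute difference, which the grey line spans on each side of 0. The points of Eif1 stay within 0.18 of 0, and all 6 points of Eif4a2 lie below it.

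Genes that act with or on these factors were listed apart. Of 31 tested translation partners, 1 rose and 2 fell between experiments. Ybx1 and Ybx2 encode Y-box proteins that package mRNA, Ybx2 mainly in germ cells. Ybx1 was higher in experiment 2 by 0.76 (SE 0.14, adjusted p = 0.00741), and Ybx2 was lower by 2.13 (SE 0.43, 4.39-fold, adjusted p = 0.0109). Igf2bp1, an mRNA binding protein, fell by 1.15 (SE 0.31, adjusted p = 0.0440). Of 27 kinases, phosphatases and mTOR pathway genes, 1 rose and 3 fell. Rheb, the GTPase that activates mTOR complex 1, rose by 1.44 (SE 0.28, adjusted p = 0.00912), while Tsc2, which switches Rheb off, fell by 2.12 (SE 0.46, adjusted p = 0.0154). Deptor, an mTOR inhibitor, fell by 2.63 (SE 0.68, adjusted p = 0.0356), and the kinase gene Pdpk1 by 1.74 (SE 0.40, adjusted p = 0.0208). Of 11 mitochondrial translation factors, Mrpl58 (-2.74, SE 0.50) and Tufm (-2.18, SE 0.42) fell. Of 19 tested cytosolic tRNA synthetase genes and their scaffolds none passed in limma, with 2 at an unadjusted p under 0.05. These shares stand beside 4.22% of named genes higher and 4.95% lower, and none of the 4 lists had a call between embryos or cell numbers. Each listed gene is read on 1 probe, and its call was not followed under the other scalings, floors, filters and blocks. A joint change of the mTOR pathway was not tested.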

How the data were processed

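RNA of 12 blastomeres was measured on 1 array each. Spot intensity values came from the authors' scanner output, made per the file headers by Feature Extraction 9.1.3.1 of Agilent. The deposited value table holds the same intensity divided by 1 constant per array, with low values raised to a floor. The labels name Cy3 for every sample, while the files of experiment 1 carry the signal in Cy5. Outlier spots were left out, spots of a probe averaged, and processed signals divided by the 75th percentile over 5858 probes that passed background in every cell. Values were floored at 0.0574 and log2 was taken. The number of arrays limits the precision. The 16694 probes that passed background in 6 or more cells were fitted with limma 3.58.1 in R 4.3.3, with Benjamini-Hochberg adjustment over all of them: embryos by an F test over the contrasts inside each experiment, cell number (also as it differed between experiments) with embryo held fixed, and experiments by a fit in which embryo is random (consensus correlation 0.35). Tests were tried on simulated data, and no outcome of that trial is used here. The p-values set a difference against a spread between these cells. For embryos it is the spread between twins, and for cell number that of the twin differences. For experiments it is the spread of cells within an experiment, with twins taken as correlated. Of the 120 factor probes, 100 were named by accession through RefSeq's gene table of GRCm38.p6, and the others kept the file's name or an older synonym's current form. Named genes are those whose representative probe passed, the 6 with the largest and the 6 with the smallest twin difference, a list of core factors, and others once by family. Passing probes that represent no gene (of Eif1, Eif2s2 and Eif2s3x) and other second probes are shown because probes disagree. The members and lists were chosen with earlier results of these data known. Alternatives were other scalings, floors, filters and blocks, and each cell left out.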

Additional observations from a re-analysis of the deposited data

Results flagged for a closer look

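Among the 6 cells of an experiment, the highest or lowest value was set against its nearest neighbour for 44 factor probes, 88 groups in all. A gap over 0.625 of the group's range was singled out, which chance gives in about 1 group in 20, and 3 groups had one. Eef1a1 read 3.53 in cell 2 of pair H of experiment 2, with the next cell at 2.81. Eif2b1 read -2.25 in cell 1 of pair D of experiment 1, the array with the lowest share of probes above background (21.9%), with the next cell at -0.91. Eif5a2 read -3.87 in cell 2 of pair D of experiment 2, beside -4.03 in its twin and the floor in the other 4 cells. In the unused Cy3 channel of experiment 1, 1 factor spot was well above background on 1 array, Eif5b in cell 2 of pair D, with a processed signal of 29.8 against 63.6 in Cy5.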

How the results depend on the processing

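Each call between experiments kept its sign under every setting tried, while sizes and counts moved. The 10 factor probes that passed became 1 with the 75th percentile of all probes, 0 after normexp (limma), 1 with a lower common floor, 1 with a floor per array, 4 on the deposited values, 6 with probes on at least 3 arrays, 20 with array weights and 5 with slide as the random block. Quantile normalization gave 10 higher and 4 lower (979 and 854 over all probes), and leaving out each cell gave 4 to 13. Over all probes 1353 became 173, 427, 596, 368 and 702 under the first 5 of these. The remaining counts have no share of all probes beside them and are not read as results about the factors. Between embryos, the 1 factor probe became 2, 25, 0, 16 and 0 under those same 5 (all probes 334, 6698, 2, 4356 and 1 of 16694, so that 40.1% of all probes passed after normexp and 26.1% with a floor per array), and 11 with probes on at least 3 arrays, 0 with probes on all 12 arrays, 8 with no filter, 21 with array weights (all probes 27.2%), 0 within slides, 0 in experiment 1 alone and 3 in experiment 2 alone. Leaving out each cell gave 0 to 14. The fit that took cell number as a replicate block gave 0. Counts between embryos without a share of all probes beside them are likewise not read as results about the factors. The cause was not tested. Twin differences showed no steady pairing of cell numbers across embryos (correlations of -0.0793 to 0.259 over 15 embryo pairs, 6 positive and 3 over 0.1). The median twin difference of 0.57 became 0.88 with the percentile over all probes and 0.48 after normexp. Cell number and interaction gave 0 calls in limma under every alternative. Array number, signal over background and the floor limit dim probes.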
